A study of Mus musculus with 45 samples.

Results

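The cell cycle and DNA replication genes described here are 36 genes given as a fixed list of symbols and matched to the first column of the deposited gene tables. All 36 were among the 23227 genes of those tables, and all 36 passed the filter on low counts that left 14067 genes for testing. Levels are in CPM, the counts of a gene scaled to the size of its library after correction by TMM, a scaling factor that evens out differences in library composition. The 45 libraries were polyA RNA of whole liver from wild type C57BL/6J mice, all 24 weeks old and killed after a night without food. The diet groups were a high-fat diet (HFD) for 16 weeks, begun at 8 weeks of age, an HFD for 6 weeks, begun at 18 weeks of age, and chow throughout. The time on HFD and the age at its start therefore cannot be told apart. On 16-week HFD there were 3 basal libraries, 3 libraries at 15, 60 and 120 min after insulin and 6 libraries at 30 min after insulin, and 3 libraries from mice given metformin. On 6-week HFD there were 3 libraries with metformin and 3 basal libraries. On chow there were 3 libraries at each of 15, 30, 60 and 120 min after insulin, 3 libraries with metformin and 3 basal libraries. Insulin was injected into the peritoneum at 1 U/kg, and metformin, a glucose-lowering drug, was given in the drinking water at 270 mg per kg of lean body mass per day from 8 or 18 weeks of age. The study's design text gives at least 3 mice a group, but no label ties a library to a mouse, so the p-values below measure the spread between libraries, which may be partly technical. Each library held between 18193181 and 50253493 counts.

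A dividing cell passes from G1, where D-type cyclins release E2F factors from the retinoblastoma proteins, through S phase, where licensed origins are copied, to mitosis, where cyclin B and its kinase, the spindle motors and the anaphase-promoting complex part the chromosomes. E2F factors drive genes of origin licensing and nucleotide supply, and a later set of genes, driven through the MuvB complex with B-Myb and FoxM1, makes the proteins of mitosis. Most hepatocytes of an adult liver rest outside this cycle, and resident macrophages, endothelial cells and blood cells in the organ can divide as well. The 36 genes were read in these roles: G1 entry (Ccnd1 and E2f1), origin licensing (8 genes), the replication fork clamp and nucleotide supply (5 genes), mitotic cyclins, kinases and their regulator Foxm1 (8 genes), checkpoint and anaphase (5 genes), and spindle, chromosomes and cytokinesis (8 genes). The last 3 roles together hold 21 genes, called mitotic genes below.

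Most of these genes were close to the bottom of what the libraries measured. Per kilobase of exon, 32 of 36 lay below the median tested gene, and their median was 0.439 CPM per kb against 4.23 CPM per kb for all tested genes. The highest were Pcna, the sliding clamp of the replication fork, at 20.9 CPM per kb, Ccnd1, which encodes cyclin D1, at 10.6 CPM per kb, and Tk1, the thymidine salvage kinase, at 10.3 CPM per kb. The lowest were Foxm1, the mitotic transcription factor, at 0.115 CPM per kb, Cdc6, which loads the replicative helicase, at 0.0499 CPM per kb, and Bub1, a checkpoint kinase, at 0.0344 CPM per kb. For 15 genes the mean over all libraries was under 1 CPM, and 4 genes had libraries at 0 (Bub1 in 7, Aurkb in 3, Ccnb1 and Cdc6 in 1 each). Bub1 had 0 to 15 counts in a library with a median of 2, whereas Ccnd1 had 133 to 3211 counts and Pcna 416 to 1261 counts, so that values of the lowest genes carry large counting error. On mm9, Ccnd1 lies at chr7:152115836-152125830, E2f1 at chr2:154385375-154395588, Mki67 at chr7:142881471-142908062 and Top2a at chr11:98854261-98885503, all on the minus strand, and counts were summed over the exons.

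Some libraries stood apart before any comparison was read. Library 2 at 120 min after insulin on 16-week HFD was the highest of its time in 33 of the 36 genes, and library 6 at 30 min on 16-week HFD was the lowest of its time in 24 of 36. At 60 min on 16-week HFD, library 2 was the highest in 27 genes and library 3 the lowest in 23, and at 15 min library 2 was the lowest in 23. Among 16-week HFD basal libraries, which the insulin comparisons on that diet are set against, library 1 was the lowest in 22 of 36 genes and in 14 of the 21 mitotic genes. On chow, library 1 at 120 min was the highest in 23 genes, and with metformin on 16-week HFD library 1 was the highest in 21. These ranks were not read over all tested genes, so they may not be particular to the 36. The 6 hepatocyte markers summed to between 64300 and 149000 CPM in every library with none of them at 0. Markers of pancreatic acinar cells summed to 7.07 to 14200 CPM and those of skeletal muscle to 0.0 to 1150 CPM, depending on the library.

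Promoters of E2F and MuvB target genes are known for particular sequence words, and promoters are shown here for some of the genes called below. RefSeq promoters of 300 bases, 250 before to 50 after the start on GRCm38.p6, were found for 29 of the 36 genes (those of Ccnd1, Ccna2, Aurkb, Foxm1, Mcm4, Tpx2 and Kif20a were not found). Where a gene had more than 1 entry (2 genes), the most upstream one was read. The set of all promoters was not reduced in this way and kept every entry of a gene. The cell cycle homology region core, TTTGAA, was searched on both strands and stood in 12 of 29 promoters (41.4%), against 17.9% of all 32851 promoters. CCAAT boxes, written CCAAT and searched likewise, stood in 21 of 29 (72.4%), against 37.4% of all promoters. Any of the E2F words TTTCCCGC, TTTCGCGC, TTTGCCGC and TTTGGCGC stood in 7 of 29 (24.1%), against 2.3% of all promoters. The 7 genes with an E2F word were Cdk1, Cdt1, Cdc6, Mcm3, Mcm5, Mcm6 and Mcm7, and in 4 places words overlapped each other. The 12 genes with TTTGAA were Mki67, Top2a, Kif11, Prc1, Ccnb2, Cdk1, Cdc20, Aurka, Bub1b, Plk1 and Ube2c, all mitotic, and Mcm2. The promoters of E2f1 and Mad2l1, both called below in basal livers, were found and held none of these words. A word is a match of letters and says nothing of whether a factor binds there.

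The first sequence is the promoter of Mcm3, a subunit of the replicative helicase, at chr1:20820263-20820562 on the minus strand, and the others are those of genes read at 30 min after insulin. Top2a, at chr11:99024140-99024439 on the minus strand, encodes the topoisomerase that disentangles replicated chromosomes. Mki67, at chr7:135716330-135716629 on the minus strand, encodes the proliferation antigen Ki-67, which coats mitotic chromosomes. Ccnb1, at chr13:100786437-100786736 on the minus strand, encodes cyclin B1, and Kif11, at chr19:37376132-37376431 on the plus strand, a motor that pushes spindle poles apart. Each is printed from 5′ to 3′ in the direction of its gene, in lower case, with every match to the words above, or to their reverse complements, in capitals.
Mcm3: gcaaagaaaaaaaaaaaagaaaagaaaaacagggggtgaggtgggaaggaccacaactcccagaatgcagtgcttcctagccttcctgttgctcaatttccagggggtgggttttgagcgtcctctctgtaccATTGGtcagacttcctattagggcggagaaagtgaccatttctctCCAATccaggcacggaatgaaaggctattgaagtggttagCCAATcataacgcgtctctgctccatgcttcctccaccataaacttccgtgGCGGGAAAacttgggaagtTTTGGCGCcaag
Top2a: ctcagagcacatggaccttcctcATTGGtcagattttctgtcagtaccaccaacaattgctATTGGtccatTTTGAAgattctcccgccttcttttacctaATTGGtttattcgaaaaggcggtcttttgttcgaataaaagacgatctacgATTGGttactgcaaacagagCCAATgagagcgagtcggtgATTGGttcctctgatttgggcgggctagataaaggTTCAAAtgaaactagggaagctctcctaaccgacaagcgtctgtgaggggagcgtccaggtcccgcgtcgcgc
Mki67: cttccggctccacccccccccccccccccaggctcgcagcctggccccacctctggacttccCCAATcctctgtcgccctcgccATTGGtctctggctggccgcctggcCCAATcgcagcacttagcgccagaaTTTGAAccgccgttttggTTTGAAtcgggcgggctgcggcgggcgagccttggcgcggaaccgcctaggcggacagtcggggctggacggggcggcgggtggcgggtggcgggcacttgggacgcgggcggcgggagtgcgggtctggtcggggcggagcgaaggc
Ccnb1: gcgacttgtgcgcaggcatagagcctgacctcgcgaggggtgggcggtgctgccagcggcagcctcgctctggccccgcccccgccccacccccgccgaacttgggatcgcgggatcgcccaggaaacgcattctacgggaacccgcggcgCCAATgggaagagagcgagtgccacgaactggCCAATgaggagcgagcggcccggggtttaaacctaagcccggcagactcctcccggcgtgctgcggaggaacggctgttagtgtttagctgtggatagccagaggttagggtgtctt
Kif11: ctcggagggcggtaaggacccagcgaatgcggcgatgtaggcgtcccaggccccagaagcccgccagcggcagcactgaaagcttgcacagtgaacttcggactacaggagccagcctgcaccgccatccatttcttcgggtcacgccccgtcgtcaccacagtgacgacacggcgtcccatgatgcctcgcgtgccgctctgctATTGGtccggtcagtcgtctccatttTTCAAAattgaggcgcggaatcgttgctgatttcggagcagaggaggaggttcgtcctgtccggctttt
Mcm3 held 3 CCAAT words and 2 E2F words and no TTTGAA. Top2a held 6 CCAAT words and 2 TTTGAA words, and Mki67 held 3 CCAAT words and 2 TTTGAA words. Kif11 held 1 of each, with TTTGAA starting at base -19 from the start of the gene on the opposite strand, whereas Ccnb1 held 2 CCAAT words and no TTTGAA in this window.

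In basal livers, the genes of cyclin D1 and E2F1 were higher on 16-week HFD than on chow in every library, while 1 of the 21 mitotic genes (Mad2l1) was called. Of the 36 genes, 4 rose on 16-week HFD and 0 fell, where 16.0% of all tested genes were called higher and 16.3% lower, so the share of these genes called was below that of all genes. A gene was called where the adjusted p of edgeR's quasi-likelihood test, with Benjamini-Hochberg adjustment over all 14067 genes, was below 0.05. At an unadjusted p below 0.05 there were 11 higher and 1 lower, and DESeq2 called 5 higher and 0 lower. The median log2 fold change was 0.73 over the 36 genes and 0.02 over all tested genes.

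Ccnd1, the D-type cyclin that starts G1 exit, had 67.2, 74.6 and 59.0 CPM in 16-week HFD basal livers, against 10.9, 11.4 and 11.9 CPM in chow basal livers. The 3 HFD libraries all lay far above the 3 chow libraries, with no overlap. Such a gap between 3 and 3 libraries was common in this comparison, at 48.2% of all tested genes and 14 of the 36. Its log2 fold change was 2.55 ± 0.39 (SE, here and below) with an adjusted p of 5.51e-06 in edgeR, a 5.86-fold difference in means of the fit. E2f1, which encodes an activating E2F factor, had 4.43, 4.7 and 5.47 CPM in 16-week HFD basal livers, against 1.64, 1.66 and 2.55 CPM in chow basal livers. Here too the lowest HFD library lay above the highest chow library, and the log2 fold change was 1.33 ± 0.23 (adjusted p 4.37e-05). In whole liver, more or fewer cells that express a gene and more or less of its RNA per cell cannot be told apart.

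The other calls in this comparison were Mcm3 and Mad2l1, a spindle checkpoint protein. Mcm3 had 3.46, 5.98 and 6.39 CPM in 16-week HFD basal livers, against 3.02, 3.36 and 2.97 CPM in chow basal livers (log2 fold change 0.76 ± 0.24, adjusted p 0.0147). Mad2l1 had 1.61, 2.06 and 2.56 CPM in 16-week HFD basal livers, against 1.51, 1.23 and 0.743 CPM in chow basal livers (0.80 ± 0.26, adjusted p 0.016). Both sets of libraries stood apart, but the lowest HFD library was close to the highest chow library. Neither call held throughout: Mcm3 was not called without HFD basal library 2 or 3 (adjusted p up to 0.0903), and Mad2l1 was not called without HFD basal library 3, without chow basal library 3 or in a fit of the 2 groups alone (adjusted p up to 0.113). Mki67 had 1.15, 2.37 and 4.06 CPM in 16-week HFD basal livers, against 1.04, 1.17 and 1.22 CPM in chow basal livers, where the lowest HFD library fell among the chow libraries, and was not called (1.16 ± 0.57, adjusted p 0.118). Summed over the 21 mitotic genes, HFD basal libraries had 15.8, 19.2 and 23.9 CPM and chow basal libraries 14.6, 14.8 and 13.1 CPM.

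After 6 weeks of HFD, 1 of the 36 genes rose and 0 fell, where 11.0% of all tested genes were called in either direction. That gene was Ccnd1, with 40.7, 38.8 and 51.2 CPM in 6-week HFD basal livers against the same chow basal libraries as above (log2 fold change 1.93 ± 0.38, adjusted p 0.000837). Its 3 libraries lay above all chow basal libraries and below all 16-week HFD basal libraries. Libraries of 6-week HFD and chow did not overlap in 6 of the 36 genes and in 37.5% of all tested genes, and those of 16-week and 6-week HFD in 9 of the 36 and in 32.0% of all tested genes. In this comparison 1 gene had an unadjusted p below 0.05 in each direction, DESeq2 called 1 higher and 0 lower, and the median log2 fold change was 0.12 over the 36 genes and 0.01 over all tested genes. Between 16 and 6 weeks of HFD, 1 of the 36 rose and 0 fell, where 10.2% of all tested genes were called. This was E2f1, which had 2.44, 2.79 and 2.07 CPM in 6-week HFD basal livers, all below the 16-week HFD libraries (1.00 ± 0.22, adjusted p 0.00485). On 6-week HFD, E2f1 overlapped chow basal livers (0.33 ± 0.23, adjusted p 0.41). Ccnd1 itself was not called between the 2 HFD times in the fit of all libraries (0.62 ± 0.36, adjusted p 0.282). At an unadjusted p below 0.05, 7 of the 36 genes were higher and 0 lower at 16 than at 6 weeks of HFD, and DESeq2 called the same number as edgeR (1 higher and 0 lower). Markers of T and NK cells had 3 of 6 tested higher on 6-week HFD than on chow (Cd3e, Cd3g and Cd8a), with a sum of 3.9 to 4.63 CPM on 6-week HFD and 1.39 to 1.53 CPM on chow, and 1 of 6 lower at 16 than at 6 weeks of HFD (Cd8a). Markers of skeletal muscle had 5 of 5 lower at 16 than at 6 weeks of HFD (0.0441 to 0.138 CPM in sum at 16 weeks, 2.91 to 1150 CPM at 6 weeks), 4 of 5 lower on 16-week HFD than on chow and 1 of 5 higher on 6-week HFD than on chow. The part of these cells in the results was not tested.

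**Figure D1:**
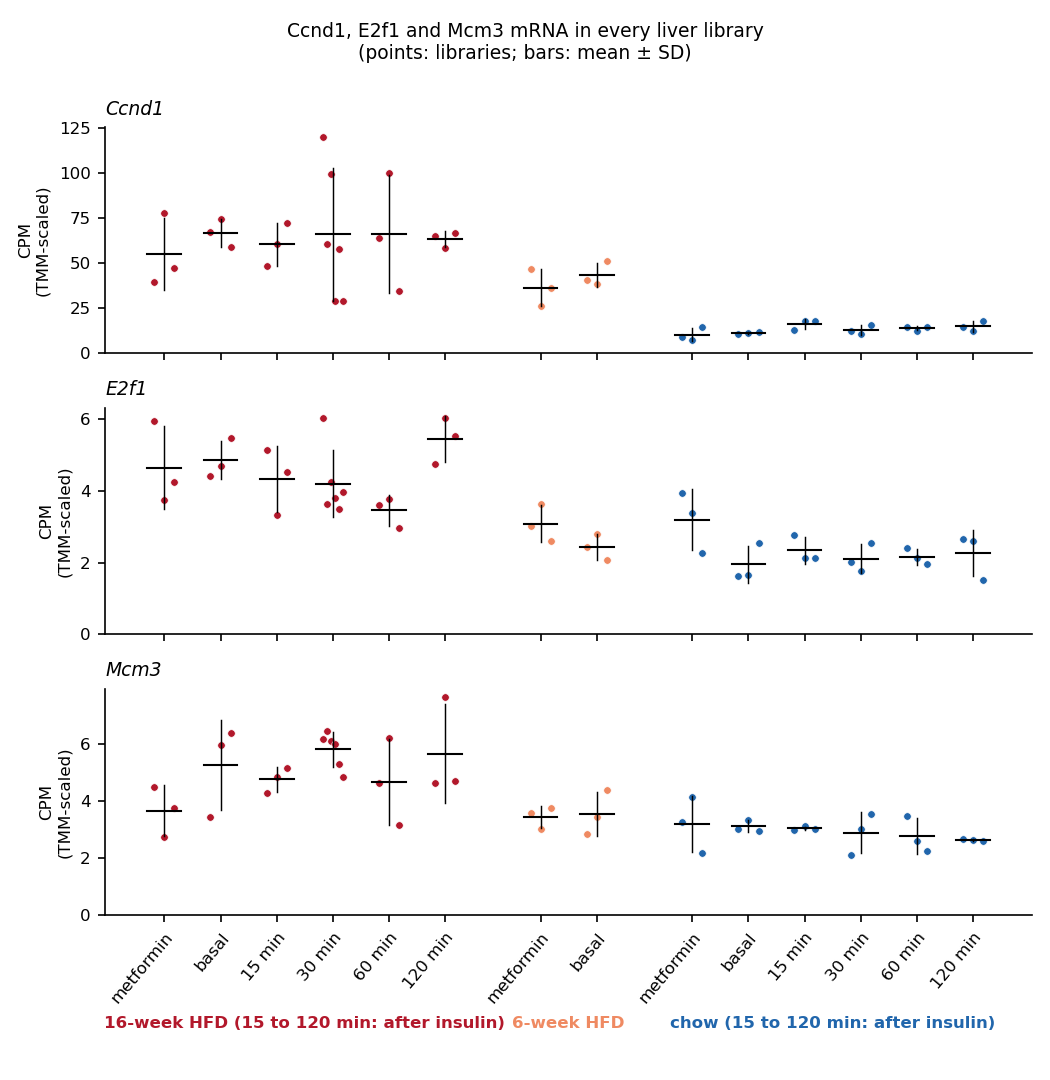
Levels (CPM) of Ccnd1, E2f1 and Mcm3 in each of the 45 libraries, by group, with points for libraries and a bar for the group mean and its SD. All 21 libraries on 16-week HFD hold 29.1 CPM of Ccnd1 or more and all 18 on chow 18.2 CPM or less, with the 6 libraries on 6-week HFD between 26.3 and 51.2 CPM.

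Ccnd1 was higher on 16-week HFD than on chow in every treatment, without overlap of all libraries of the 2 diets. Across all 14 groups, the 21 libraries on 16-week HFD ran from 29.1 to 120 CPM with a median of 60.9 CPM, the 6 libraries on 6-week HFD from 26.3 to 51.2 CPM with a median of 39.7 CPM, and the 18 chow libraries from 7.66 to 18.2 CPM with a median of 13 CPM. On 16-week HFD it had 48.7, 60.9 and 72.4 CPM at 15 min after insulin, a lowest of 29.1, a median of 59.2 and a highest of 120 CPM at 30 min, 64.1, 100 and 34.9 CPM at 60 min and 65.4, 58.6 and 67.0 CPM at 120 min. These overlapped each other and the basal HFD libraries at every time. On chow it had 13.2, 18.0 and 17.8 CPM at 15 min, 12.4, 10.6 and 15.9 CPM at 30 min, 14.7, 12.7 and 14.9 CPM at 60 min and 14.7, 12.3 and 18.2 CPM at 120 min. All chow libraries at 15, 60 and 120 min lay above the chow basal libraries, and at 30 min they overlapped. No change of Ccnd1 with insulin was called on either diet, and on chow the log2 fold changes over basal livers were 0.52 ± 0.37 at 15 min, 0.18 ± 0.38 at 30 min, 0.30 ± 0.38 at 60 min and 0.40 ± 0.38 at 120 min (adjusted p 0.661 or more in edgeR). On chow, the libraries after insulin did not overlap the basal ones in 5 of the 36 genes at 15 min (19.3% of all tested genes), 4 at 30 min (17.4%), 7 at 60 min (23.2%) and 7 at 120 min (26.7%). At 30 min on 16-week HFD the level was 120, 60.5 and 99.5 CPM in libraries 1 to 3 and 29.1, 58.0 and 29.2 CPM in libraries 4 to 6. The first 3 were thus higher, but library 2 was close to library 5.

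After insulin the same diet comparison called most of the list. Averaged over 15, 30, 60 and 120 min with equal weight, 25 of the 36 genes rose on 16-week HFD and 3 fell, where 31.9% of all tested genes were called higher and 27.5% lower. This contrast rests on 15 HFD and 12 chow libraries, more than the 3 and 3 of the basal contrast, so the counts of the 2 contrasts are not on the same footing. At an unadjusted p below 0.05 there were 26 higher and 3 lower, and DESeq2 also called 25 higher and 3 lower. The median log2 fold change was 0.92 over the 36 genes and 0.03 over all tested genes. In 2 of the 36 genes, Ccnd1 and E2f1, no HFD library overlapped a chow library, where this held for 7.3% of all tested genes. By role, the counts were 2 of 2 higher for G1 entry (median log2 fold change 1.54), 6 of 8 higher and 2 lower for origin licensing (0.78), 1 of 5 higher and 1 lower for clamp and nucleotide supply (0.13), 5 of 8 higher for mitotic cyclins and kinases (1.1), 5 of 5 higher for checkpoint and anaphase (1.01) and 6 of 8 higher for spindle, chromosomes and cytokinesis (1.06).

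For G1 entry, Ccnd1 ran from 29.1 to 120 CPM with a median of 60.9 CPM in the 15 HFD libraries after insulin, against 10.6 to 18.2 CPM with a median of 14.7 CPM in the 12 chow libraries (log2 fold change 2.14 ± 0.19, adjusted p 1.21e-11 in edgeR). E2f1 ran from 2.96 to 6.04 CPM with a median of 3.97 CPM on HFD, against 1.52 to 2.76 CPM with a median of 2.13 CPM on chow (0.95 ± 0.11, adjusted p 1.04e-08). All 15 HFD libraries lay above all 12 chow libraries for both genes.

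Origin licensing moved in both directions. The Mcm2 to Mcm7 proteins form the ring of the replicative helicase, and Cdc6 and Cdt1 load it onto origins. Mcm3 ran from 3.18 to 7.68 CPM with a median of 5.16 CPM on HFD, against 2.13 to 3.56 CPM with a median of 2.84 CPM on chow (0.87 ± 0.12, adjusted p 1.54e-07 in edgeR). Of the 15 HFD libraries, 14 lay above the highest chow library after insulin. Mcm5 (1.29 ± 0.20), Mcm2 (1.04 ± 0.17), Mcm6 (0.68 ± 0.14), Mcm4 (0.65 ± 0.11) and Cdc6 (1.61 ± 0.31) also rose, with adjusted p of 0.000107 or less in edgeR. For these genes between 11 and 14 of the 15 HFD libraries lay above all chow libraries after insulin. Chow libraries without insulin do not enter these counts. Mcm7 fell, although it belongs to the same ring: it ran from 9.38 to 12.4 CPM with a median of 11.3 CPM on HFD, against 10.6 to 15.5 CPM with a median of 13 CPM on chow (-0.21 ± 0.06, adjusted p 0.00175). Cdt1 fell as well: it ran from 0.981 to 2.91 CPM with a median of 1.75 CPM on HFD, against 1.68 to 4.2 CPM with a median of 2.49 CPM on chow (-0.45 ± 0.15, adjusted p 0.0101). The falls were small beside the rises, and both sets of libraries overlapped.

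Genes of the clamp and of nucleotide supply had few calls. Pcna ran from 22.2 to 28.3 CPM with a median of 24.8 CPM on HFD, against 23.3 to 31.3 CPM with a median of 27.9 CPM on chow, and fell by 0.17 ± 0.04 on the log2 scale (adjusted p 0.000803). That call was lost, with a log2 fold change of -0.05, when each library's trends with exon length and GC content were removed (adjusted p up to 0.258 with the replicate block added). Rrm1, the large subunit of ribonucleotide reductase, rose by 0.27 ± 0.08 (adjusted p 0.00677). Its small subunit Rrm2 (-0.04, adjusted p 0.791), the thymidylate synthase Tyms (0.14, adjusted p 0.0631) and Tk1 (0.13, adjusted p 0.471) were not called.

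Among the mitotic genes 16 of 21 rose and 0 fell. Mki67 ran from 1.32 to 14.3 CPM with a median of 2.93 CPM on HFD, against 0.618 to 1.81 CPM with a median of 1.27 CPM on chow (1.73 ± 0.27, adjusted p 1.93e-06), and Top2a from 0.842 to 7.78 CPM with a median of 1.7 CPM on HFD, against 0.169 to 0.903 CPM with a median of 0.596 CPM on chow (1.74 ± 0.26, adjusted p 7.15e-07). For Mki67, 13 of 15 HFD libraries lay above all chow libraries, and for Top2a 14 of 15. Prc1, which bundles the midzone microtubules, rose by 1.24 ± 0.18 and Tpx2, a spindle assembly factor, by 1.37 ± 0.22. Smaller rises were those of Nusap1, a spindle microtubule protein (0.88 ± 0.20), and of Birc5, the survivin subunit of the chromosomal passenger complex (0.47 ± 0.15). The motors Kif11 (0.15, adjusted p 0.367) and Kif20a (0.28, adjusted p 0.108) were not called.

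All 5 checkpoint and anaphase genes rose: Bub1 by 2.30 ± 0.42, Cdc20, an activator of the anaphase-promoting complex, by 1.22 ± 0.31, Ube2c, the ubiquitin-conjugating enzyme of that complex, by 1.01 ± 0.23, the checkpoint kinase Bub1b by 0.95 ± 0.21 and Mad2l1 by 0.90 ± 0.13. Bub1 rests on few counts, with 0.0407 to 0.665 CPM on HFD and 0.0 to 0.163 CPM on chow. Among cyclins and kinases, Aurkb, the Aurora kinase of the passenger complex, rose by 1.71 ± 0.48, the polo kinase Plk1 by 1.24 ± 0.32, Ccnb1 by 1.12 ± 0.37, Foxm1 by 1.11 ± 0.26 and Ccna2, cyclin A2, by 1.10 ± 0.26. The adjusted p of these 10 genes ran up to 0.0104, that of Ccnb1, which was lost without 16-week HFD 60 min library 2. Cdk1, the kinase that cyclins A and B activate (0.36, adjusted p 0.151), Ccnb2, cyclin B2 (-0.24, adjusted p 0.408), and Aurka, the Aurora kinase of the spindle poles (-0.08, adjusted p 0.506), were not called. Parts of Ccna2 (378 of 2811 exon bases), Nusap1 (208 of 2960) and Kif20a (1115 of 3905) overlap genes on the opposite strand, and the library kit does not keep strand. Reads of these parts may have been left out of the counts or may come from those neighbours. Which of these holds was not tested.

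**Figure D2:**
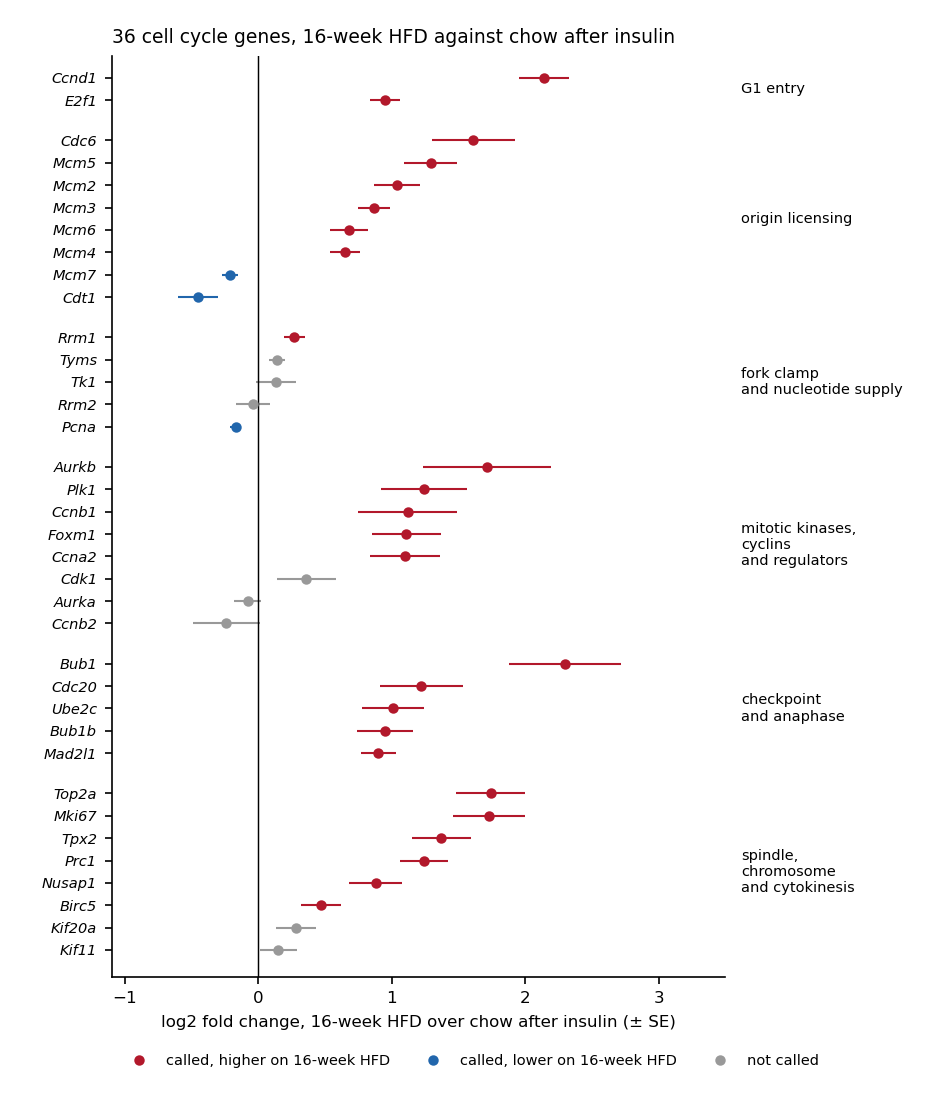
Log2 fold change of 16-week HFD over chow after insulin for the 36 genes, grouped by role, with bars of 1 SE and colours for the call of edgeR's quasi-likelihood test. Ccnd1 stands at 2.14, most licensing and mitotic genes between 0.47 and 2.30, and 6 genes below 0, of which Pcna, Mcm7 and Cdt1 were called and Ccnb2, Aurka and Rrm2 were not.

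The mitotic rise was uneven over the HFD libraries. Of the 21 mitotic genes, the number above every chow library after insulin was 10, 7 and 10 at 15 min, 19, 18, 19, 17, 16 and 9 at 30 min, 7, 11 and 2 at 60 min and 10, 19 and 9 at 120 min. The counts were thus highest in 30 min libraries 1 to 5 and in library 2 at 120 min. They were not made over all tested genes, so they may not be particular to the mitotic genes. Without the 30 min libraries of both diets, 21 of the 36 genes rose and 3 fell: Ccnb1 (0.65, adjusted p 0.231) and Rrm1 (0.20, adjusted p 0.0924) were no longer called and Bub1 and Aurkb did not pass the filter on low counts. Without the 120 min library 2 as well, 16 rose and 4 fell. Mki67 (0.90, adjusted p 0.00204) and Top2a (1.09, adjusted p 0.00129) were still called then at a smaller size, Ccnd1 was at 2.08, and Ccna2, Ccnb1, Cdc20, Birc5, Plk1, Foxm1 and Rrm1 were not called. Bub1 and Aurkb again did not pass the filter, and Ccnb2 was newly called lower. The share of all tested genes called in these smaller fits is not given here, so the drop in calls may not be particular to these genes.

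Markers of other cells moved with this comparison. All 6 macrophage markers (Cd5l, Cd68, Clec4f, Csf1r, Emr1 and Vsig4) were called higher on HFD after insulin, with a summed level of 275 to 853 CPM and a median of 454 CPM on HFD, against 133 to 444 CPM with a median of 218 CPM on chow. In basal livers the same sum was 214 to 379 CPM on 16-week HFD and 177 to 320 CPM on chow, with 0 of 6 called. Endothelial markers had 4 of 5 higher (199 to 281 CPM on HFD, 135 to 224 CPM on chow), erythroid markers 3 of 4 tested higher, stellate cell markers 3 of 5 higher and 1 lower, and T and NK cell markers 2 of 6 tested higher. Markers of B and plasma cells had 1 of 5 lower, bile duct markers 1 of 4 lower, and those of neutrophils (2 tested), pancreatic acinar cells and skeletal muscle 0 called. Hepatocyte markers, at 64300 to 125000 CPM on HFD and 81800 to 149000 CPM on chow, had 1 of 6 higher and 4 lower. In the 120 min library 2 the macrophage sum was 751 CPM, against 346 and 323 CPM in the other libraries of that time, and at 30 min it was 487, 853, 634, 469, 383 and 469 CPM. The part of these cells in the result was not tested. Correlations of gene counts with GC content also differed by library, from -0.24 to 0.33 in HFD libraries after insulin and from -0.23 to 0.08 in chow libraries after insulin, and with those trends and the trends with exon length removed 25 genes rose and 2 fell. The share of all tested genes called in that fit is not given here.

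Against basal livers of the same diet, insulin changed few of these genes, and most of the calls were at 30 min on 16-week HFD. There 5 of the 36 genes rose over 16-week HFD basal livers and 0 fell, where 3.55% of all tested genes were called. At an unadjusted p below 0.05, 16 were higher and 0 lower, DESeq2 called 7 higher and 0 lower, and the median log2 fold change was 0.44 over the 36 genes and 0.02 over all tested genes. By role the median was 1.36 for mitotic cyclins and kinases, 0.92 for checkpoint and anaphase and 0.97 for spindle, chromosomes and cytokinesis, but 0.08 for origin licensing, -0.01 for clamp and nucleotide supply and -0.12 for G1 entry. The 5 genes were Kif20a, Top2a, Mki67, Ccnb1 and Kif11, all mitotic. The promoters printed above hold TTTGAA in Top2a, Mki67 and Kif11 and not in Ccnb1. Other spellings of that word were not searched, so Ccnb1 is not shown to lack the element.

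Top2a had 3.95, 4.4, 3.79, 5.21, 2.28 and 2.5 CPM at 30 min on 16-week HFD, against 0.553, 1.44 and 1.72 CPM in 16-week HFD basal livers, without overlap (log2 fold change 1.56 ± 0.43, adjusted p 0.0385 in edgeR). Kif20a, a motor of cytokinesis, had 1.79, 2.64, 2.43, 2.06, 1.88 and 1.27 CPM at 30 min, against 0.968, 0.971 and 1.01 CPM in basal livers, also without overlap (1.02 ± 0.27, adjusted p 0.0315). Kif11 had 1.23, 1.59, 1.82, 2.47, 1.37 and 1.27 CPM at 30 min, against 0.876, 0.971 and 0.794 CPM in basal livers (0.88 ± 0.26, adjusted p 0.0492). In all 3 genes the 6 libraries at 30 min were higher than the 3 basal libraries. The groups did not overlap in 6 of the 36 genes and in 10.7% of all tested genes. Mki67 had 9.33, 9.82, 6.49, 14, 6.04 and 2.7 CPM at 30 min, against 1.15, 2.37 and 4.06 CPM in basal livers (1.67 ± 0.47, adjusted p 0.0438). Ccnb1 had 1.57, 1.34, 1.28, 1.33, 0.942 and 0.267 CPM at 30 min, against 0.0461, 0.35 and 0.397 CPM in basal livers (2.04 ± 0.59, adjusted p 0.0486). For Mki67 and Ccnb1 the sixth library at 30 min fell among the basal libraries and the other 5 lay above them.

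These 5 calls were close to the threshold and depended on which libraries were read. The count of called genes was 0 when only libraries 4 to 6 at 30 min were kept and 10 when only libraries 1 to 3 were kept, and it was 0 in a fit of the compared groups alone. It ran from 0 to 7 when 1 library was left out in turn. It was 0 without 30 min library 2 or 4 or without basal library 1 or 2 of 16-week HFD and 1 without 30 min library 1 or 3, and Kif11 was lost in 13 of its alternatives. With the replicate number as a block the count was 11, and 1 with the length and GC trends removed. Replicate numbers 4 to 6 occur only in this group, so the block gives each of those libraries its own coefficient. The count of 11 therefore rests on libraries 1 to 3 at 30 min and is not separate from the count of 10. Mean levels were lower in libraries 4 to 6 than in libraries 1 to 3 for Mki67 (7.58 against 8.55 CPM), Top2a (3.33 against 4.05 CPM), Kif20a (1.74 against 2.29 CPM) and Ccnb1 (0.847 against 1.39 CPM) but not for Kif11 (1.7 against 1.55 CPM), and the correlation with GC content was -0.22 to -0.13 in libraries 4 to 6 and 0.19 to 0.22 in libraries 1 to 3. Macrophage markers had 0 of 6 called at 30 min over basal 16-week HFD livers, with a sum of 383 to 853 CPM at 30 min and 214 to 379 CPM in basal livers, and their part in the result was not tested.

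**Figure D3:**
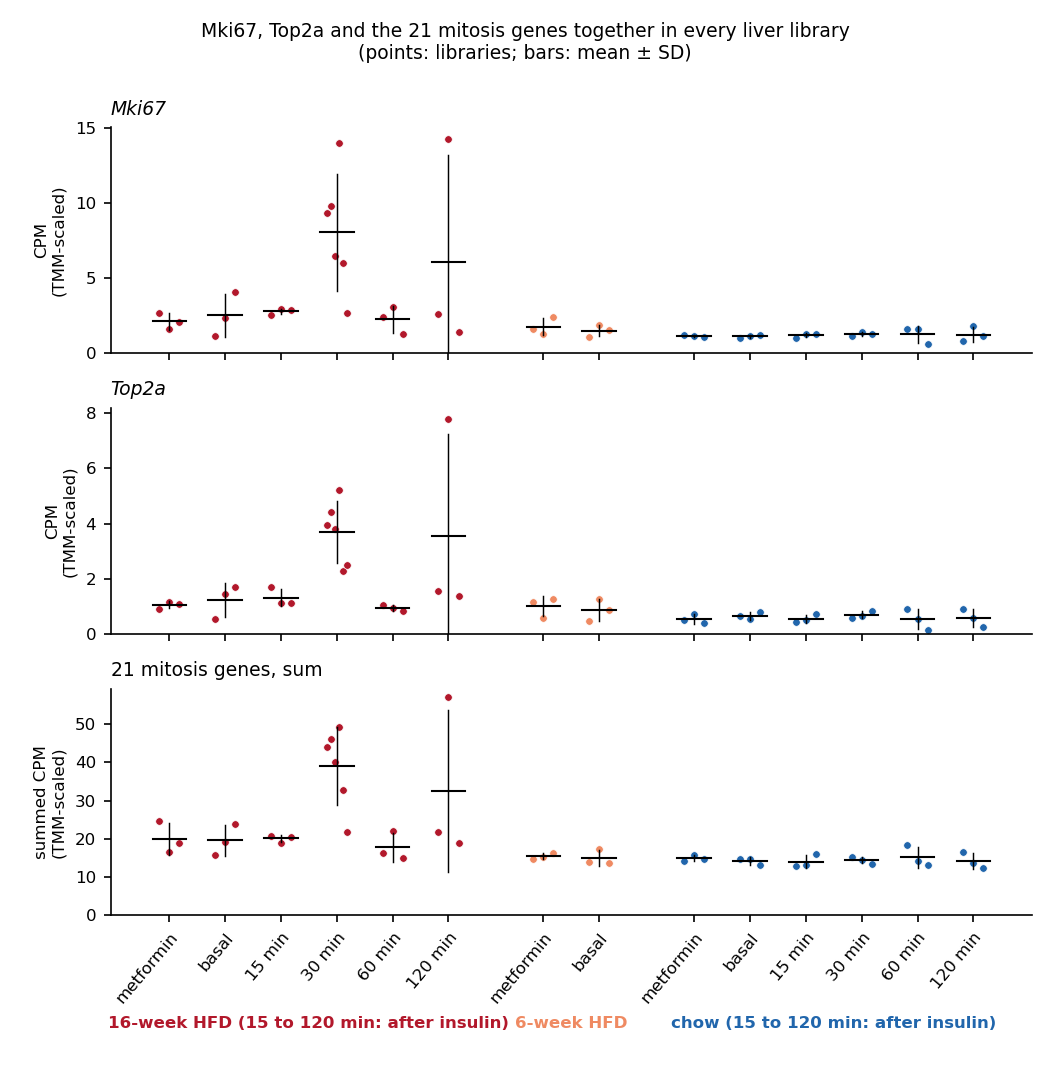
Levels (CPM) of Mki67, Top2a and the sum of the 21 mitotic genes in each library, by group, with points for libraries and bars for the mean and its SD. The sum at 30 min on 16-week HFD is 21.8 to 49.4 CPM, library 2 at 120 min reaches 57.0 CPM, and every chow library after insulin has 18.3 CPM or less.

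At the other times on 16-week HFD no gene of the list was called. At 15 min edgeR called 0.0% of all tested genes over basal and none of the 36, with 0 at an unadjusted p below 0.05 and 0 in DESeq2. At 60 min it called 0.00711% of all genes and none of the 36, with 0 higher and 1 lower unadjusted and 0 in DESeq2. At 120 min it called 0.0% of all genes and none of the 36, with 8 higher and 0 lower unadjusted and 0 in DESeq2, and a median log2 fold change of 0.30 over the 36 genes. That time held 1 library unlike the others: Mki67 had 2.61, 14.3 and 1.42 CPM and Top2a 1.55, 7.78 and 1.37 CPM in libraries 1 to 3. Library 2 was the highest of its time in 33 of the 36 genes and in 21 of 21 mitotic genes, whose sum was 21.7, 57.0 and 18.9 CPM. Mki67 had 2.57, 2.93 and 2.88 CPM at 15 min and 2.41, 3.08 and 1.32 CPM at 60 min, within the range of the basal HFD libraries.

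On chow, insulin changed 1 gene of the list. At 15 min, 1 of 36 rose and 0 fell over chow basal livers, where 1.13% of all tested genes were called (3 higher and 0 lower unadjusted, 1 higher in DESeq2). This was Rrm2, which had 8.24, 6.24 and 11.3 CPM at 15 min, against 3.94, 3.36 and 3.45 CPM in basal livers, without overlap, as for 5 of the 36 genes (log2 fold change 1.25 ± 0.27, adjusted p 0.0123 in edgeR). At 30, 60 and 120 min on chow its libraries overlapped the basal ones. The call was lost without chow 15 min library 3 or without chow basal library 2 or 3 (adjusted p up to 0.159). At 30 min edgeR called 0 of 36 (0.0711% of all genes; 1 higher and 1 lower unadjusted, 0 in DESeq2). At 60 min it called 0 of 36 (1.39% of all genes; 1 higher and 2 lower unadjusted, 1 higher in DESeq2), and at 120 min 0 of 36 (5.08% of all genes; 2 higher and 1 lower unadjusted, 0 in DESeq2).

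The gene that DESeq2 called at 60 min was Ccnb2. It had 0.715, 0.29 and 0.648 CPM at 15 min, 0.805, 0.535 and 0.798 CPM at 30 min, 1.55, 0.474 and 0.9 CPM at 60 min and 0.702, 0.686 and 0.543 CPM at 120 min, against 0.248, 0.16 and 0.318 CPM in chow basal livers. From 30 min on, all of its libraries lay above the basal ones, but edgeR did not call it at 60 min (1.96, adjusted p 0.0589). Mki67 on chow had 1.05, 1.27 and 1.3 CPM at 15 min, 1.13, 1.44 and 1.28 CPM at 30 min, 1.6, 1.6 and 0.618 CPM at 60 min and 0.802, 1.81 and 1.14 CPM at 120 min. All of these overlapped the chow basal libraries.

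Whether insulin acted differently on 16-week HFD and on chow was tested as an interaction, and none of the 36 genes was called at any time. At 15 min 0.00711% of all tested genes were called (0 of the 36 higher and 1 lower unadjusted), at 30 min 0.0% (7 higher and 0 lower), at 60 min 0.0% (0 higher and 1 lower) and at 120 min 0.839% (4 higher and 0 lower), with 0 of the 36 in DESeq2 each time. At 30 min the median interaction was 0.52 over the 36 genes, with Top2a at 1.48 ± 0.70 (adjusted p 0.328), Kif20a at 1.02 ± 0.41 (adjusted p 0.26) and Kif11 at 0.98 ± 0.39 (adjusted p 0.253). The rise of mitotic genes at 30 min on HFD is thus not shown to differ from what insulin did on chow. These contrasts and the diet contrast in basal livers share their basal libraries, so they are not independent of each other.

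**Figure D4:**
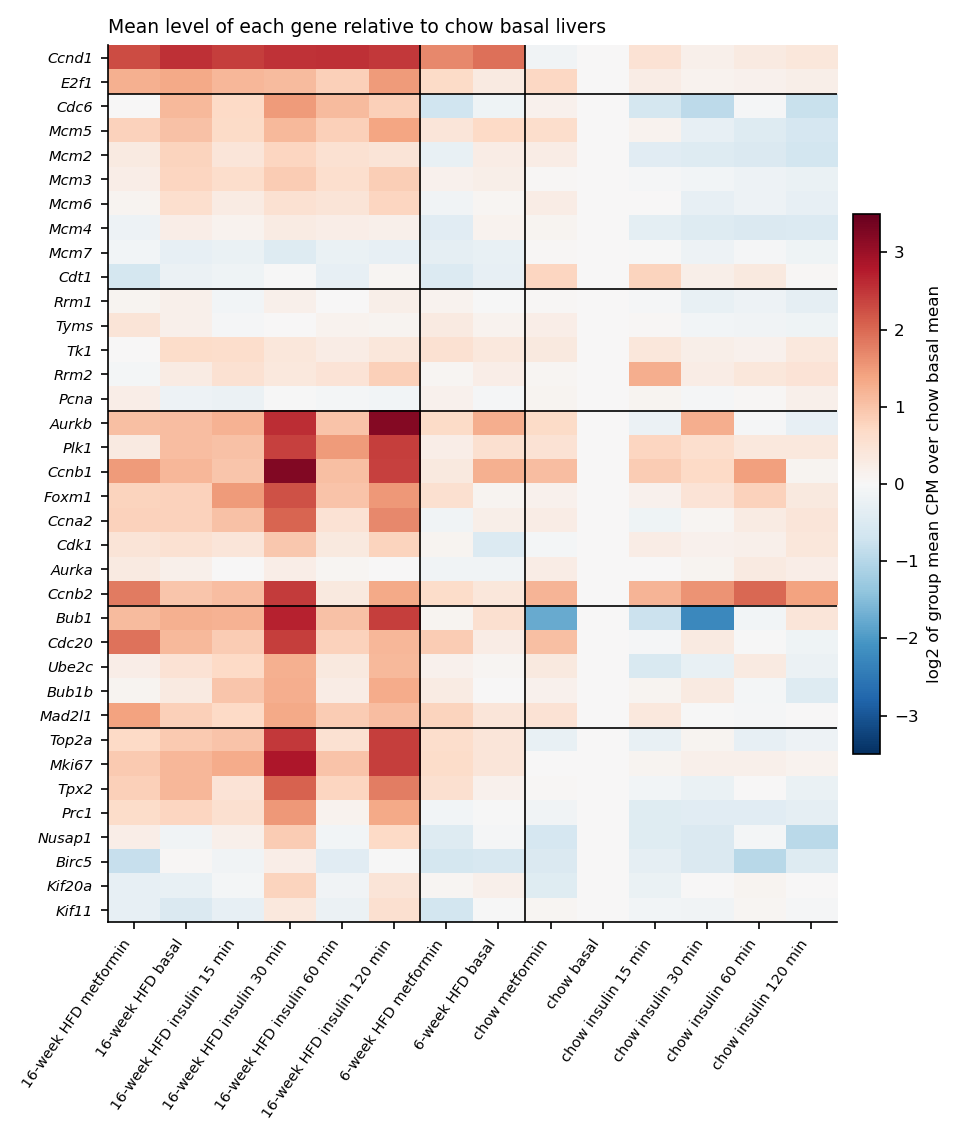
Group means of the 36 genes in the 14 groups as log2 ratios to the chow basal mean, in colour, with genes in rows by role. The row of Ccnd1 is high in every HFD group, and that of Mki67 is highest at 30 and 120 min after insulin on 16-week HFD. The Mki67 mean at 120 min rests on library 2, with 2.61, 14.3 and 1.42 CPM in libraries 1 to 3.

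With metformin, the diet contrast again turned on Ccnd1. Between 16-week HFD and chow, both with metformin, 2 of the 36 genes rose and 1 fell, where 20.4% of all tested genes were called (5 higher and 1 lower unadjusted, 2 higher and 1 lower in DESeq2). Ccnd1 had 39.9, 77.9 and 47.6 CPM on 16-week HFD with metformin, against 9.17, 7.66 and 14.7 CPM on chow with metformin (log2 fold change 2.39 ± 0.39, adjusted p 5.87e-05 in edgeR). Mad2l1 had 3.99, 2.47 and 2.8 CPM on 16-week HFD with metformin, against 1.69, 1.56 and 1.68 CPM on chow with metformin (0.90 ± 0.25, adjusted p 0.0109). Cdt1 had 1.79, 1.03 and 1.15 CPM on 16-week HFD with metformin, against 4.28, 3.57 and 2.37 CPM on chow with metformin (-1.37 ± 0.32, adjusted p 0.00278). None of these 3 genes overlapped between the groups, which held for 10 of the 36 genes and for 27.8% of all tested genes. Ccnd1 alone was called in a fit of the 2 groups alone, and Mad2l1 was also lost without 16-week HFD metformin library 1, whose correlation with exon length was the lowest of all libraries at -0.61.

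Between 6-week HFD and chow, both with metformin, 1 of the 36 rose and 1 fell, where 4.43% of all tested genes were called (1 higher and 4 lower unadjusted, 1 higher and 1 lower in DESeq2). These were again Ccnd1, with 46.7, 26.3 and 36.5 CPM on 6-week HFD with metformin (1.79 ± 0.38, adjusted p 0.00415), and Cdt1, with 1.18, 1.71 and 1.39 CPM (-1.25 ± 0.32, adjusted p 0.0154), against the chow metformin libraries given above. Neither gene overlapped between the groups, which held for 10 of the 36 genes and for 26.5% of all tested genes, and the call of Cdt1 was lost without 6-week HFD metformin library 1, without chow metformin library 1 or in a fit of the 2 groups alone (adjusted p up to 0.0967). In basal livers, Cdt1 had 1.34, 2.21 and 1.68 CPM on 16-week HFD, 1.64, 1.52 and 1.75 CPM on 6-week HFD and 1.94, 2.03 and 2.07 CPM on chow, and was not called between the diets, whereas after insulin it was called lower on 16-week HFD, as given above.

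Against basal livers of the same diet, metformin changed few of these genes. On 16-week HFD 1 rose and 1 fell, where 28.4% of all tested genes were called (2 higher and 2 lower unadjusted, 1 higher and 1 lower in DESeq2). Pcna had 34.9, 28.6 and 28.7 CPM on 16-week HFD with metformin, against 24.5, 22.7 and 22.4 CPM in 16-week HFD basal livers (log2 fold change 0.41 ± 0.09, adjusted p 0.000934 in edgeR). Birc5 had 1.5, 0.772 and 0.951 CPM with metformin, against 2.44, 1.52 and 1.9 CPM in basal livers (-0.86 ± 0.31, adjusted p 0.0353). Pcna did not overlap and Birc5 did not either, though its highest metformin library stood next to its lowest basal library. This held for 5 of the 36 genes and for 30.8% of all tested genes. With length and GC trends removed, Pcna was at 0.03 and no gene of the list was called, and Birc5 was lost in 8 of 14 alternatives. The 3 metformin libraries on 16-week HFD had correlations of -0.61, -0.27 and -0.34 with exon length, against -0.22, 0.07 and 0.15 in 16-week HFD basal libraries. Stellate cell markers had 3 of 5 lower (184 to 255 CPM in sum with metformin, 170 to 322 CPM in basal livers), endothelial markers 2 of 5 lower (119 to 161 CPM with metformin, 155 to 260 CPM in basal livers), hepatocyte markers 4 of 6 higher and B and plasma cell markers 1 of 5 higher (Igj) in this comparison, and their part in the result was not tested.

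On 6-week HFD, metformin changed 0 of the 36 genes in edgeR, where 3.17% of all tested genes were called (1 higher and 1 lower unadjusted, 0 in DESeq2). On chow it changed 0 of 36, where 1.94% of all tested genes were called (3 higher and 0 lower unadjusted, 0 in DESeq2). The smallest adjusted p on chow was that of E2f1 (0.73, adjusted p 0.101), with 3.94, 3.4 and 2.27 CPM with metformin against 1.64, 1.66 and 2.55 CPM in basal livers, which overlapped. It was called without chow metformin library 3 (log2 fold change 0.93). Mki67 had 2.72, 1.6 and 2.1 CPM on 16-week HFD with metformin, 1.62, 1.32 and 2.43 CPM on 6-week HFD with metformin and 1.2, 1.15 and 1.08 CPM on chow with metformin, and in 6-week HFD basal livers 1.12, 1.9 and 1.54 CPM. It was called in none of the metformin comparisons.

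As an interaction of metformin with 6-week HFD, 0 of 36 genes were called in edgeR (0.0427% of all tested genes; 0 higher and 1 lower unadjusted, 0 in DESeq2). With 16-week HFD, 0 of 36 were called (4.96% of all tested genes; 1 higher and 3 lower unadjusted, 0 in DESeq2), with Cdt1 at -1.17 ± 0.45 (adjusted p 0.113). With the replicate number as a block Cdt1 was called in that interaction. Deviations from the group means of same-numbered libraries with and without metformin correlated at 0.24, 0.15 and 0.12 on 16-week HFD. On chow these correlations were -0.04, -0.2 and 0.29. Libraries of different numbers were not compared in this way, so the values do not show that libraries were paired.

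Other genes of the same pathways were read from lists that leave out the 36. Of the G1 cyclins, kinases, inhibitors, Rb and E2F genes, 32 of 35 were tested, and after insulin 8 rose and 10 fell on 16-week HFD against chow (median log2 fold change -0.06), or 56.2% of the list, where 59.4% of all tested genes were called. Rbl1, a pocket protein related to Rb, rose by 1.13 ± 0.15, Ccnd2, cyclin D2, by 0.90 ± 0.13, and Ccng1, the p53 target cyclin G1, by 0.82 ± 0.06, whereas E2f3 fell by 0.40 ± 0.06 on the log2 scale. Of the other DNA replication genes, 37 of 38 were tested, and 17 rose and 8 fell (median 0.09), or 67.6% of the list. Uhrf1, which guides maintenance methylation of new DNA, rose by 2.12 ± 0.35, Chaf1a, a histone chaperone subunit, by 0.93 ± 0.16, and Pold1, the catalytic subunit of polymerase delta, by 0.60 ± 0.10, whereas the chaperone's partner subunit Chaf1b fell by 1.03 ± 0.14. Of the other mitosis genes, 52 of 61 were tested, and 34 rose and 6 fell (median 0.74), or 76.9% of the list. Wee1, the kinase that holds Cdk1 inactive, rose by 1.68 ± 0.19 to a mean of 19.2 CPM on HFD, against 6.72 CPM on chow, and Smc2, a condensin subunit, rose by 0.87 ± 0.11. Nek2, a centrosome kinase, fell by 1.08 ± 0.12, and Cks2, a small Cdk-binding protein, fell by 0.57 ± 0.08.

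In basal livers of 16-week HFD against chow, 5 rose and 5 fell of the G1 list, 8 rose and 5 fell of the replication list and 7 rose and 3 fell of the mitosis list. These were 31.2%, 35.1% and 19.2% of the tested genes of each list, where 32.3% of all tested genes were called, so that the G1 and replication lists were near the share of all genes and the mitosis list was below it. Wee1 had a mean of 22.0 CPM on HFD and 5.13 CPM on chow (2.07 ± 0.39, adjusted p 9.57e-05), and Nek2 2.03 CPM on HFD and 6.25 CPM on chow (-1.61 ± 0.25, adjusted p 6.12e-06). Pold1 rose by 1.00 ± 0.22, Cdkn1c, an inhibitor of cyclin-dependent kinases, by 1.23 ± 0.27, and Ccne2, cyclin E2, by 1.56 ± 0.34, while Orc2, Orc3 and Orc4, subunits of the origin recognition complex, fell by 0.55 ± 0.13, 0.50 ± 0.11 and 0.50 ± 0.11. In Ccne2, 1734 of 3217 exon bases overlap Ints8 on the opposite strand. After 6 weeks of HFD the counts were 3 and 3 for G1, 1 and 1 for replication and 2 and 2 for mitosis (18.8%, 5.41% and 7.69% of each list, where 11.0% of all tested genes were called). At 30 min after insulin on 16-week HFD, 3 other mitosis genes rose over basal livers, Smc4 (0.46), Kif15 (1.39) and Dlgap5 (1.49), and 0 fell, with 0 called of the replication list and 0 higher and 1 lower of the G1 list, where 3.55% of all tested genes were called. With metformin on 16-week HFD, 1 rose and 3 fell of the G1 list, 7 rose and 0 fell of the replication list and 6 rose and 1 fell of the mitosis list (12.5%, 18.9% and 13.5% of each list, all below the 28.4% of all tested genes called).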

How the data were processed

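Raw read counts per gene, as the authors deposited them, were used for every result in 45 mouse liver libraries of 14 groups. Per the labels' protocols, polyA RNA went into TruSeq version 1 libraries, which do not keep strand, with paired reads of 40 to 50 bases. Per the submitters' processing notes, the build was mm9 and the tools were TopHat 1.4.0, HTSeq (version not given) and DESeq2 1.0.18. The deposited normalized tables were not used. Sample titles and characteristics gave the groups, and every library entered the reported fit.

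A filter (filterByExpr in edgeR 4.0.16 under R 4.3.3, minimum count 10) removed genes of low counts. After TMM scaling, 1 fit held all libraries with a coefficient for each group. For each of 23 comparisons, edgeR's quasi-likelihood F test gave p-values, adjusted by Benjamini-Hochberg within the comparison, and genes below 0.05 were called. Fold changes are log2 values at a prior count of 0.125, and each SE is the absolute log2 value over the square root of F. The diet comparison after insulin weights the 4 times equally. Counting error is largest for genes of a few counts. Reads shared with near-identical gene copies were not assessed. The code was tested on simulated data.

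The 36 genes and all lists were chosen with earlier results of these data known. Named were every called member, the 3 highest and 3 lowest members by CPM per kb, Mki67 and Ccnd1 in every group, and up to 4 called genes per other list in the comparisons described. Members cited without a call, and the promoters printed, were chosen after their values were seen, as were genes of interactions. Alternatives were RLE in place of TMM, the unfiltered table, the replicate number as a block, DESeq2 1.42.0, a fit of the compared groups alone, removal of length and GC trends (GC known for 98.0% of genes), and leaving out libraries. The labels tie no replicate number to a mouse, litter or day. Between basal and metformin libraries of the same number, deviations from the group means correlated at 0.24, 0.15 and 0.12 in mice fed HFD for 16 weeks and at 0.41, 0.16 and 0.3 in those fed it for 6 weeks. The reported fit did not pair libraries. The numbers entered only the alternatives with a replicate block, which spans all groups, and any pairing there comes from the data and not from a label.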

Additional observations from a re-analysis of the deposited data

Results flagged for a closer look

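In the 6 libraries at 30 min after insulin on 16-week HFD, the highest library stood far from its nearest neighbour, by Dixon's test at 95%, in 4 of 36 genes. Chance gives such a gap, at either end of a group, in about 1 in 20 groups of like libraries. Libraries 1 to 3 differed here from libraries 4 to 6, and the genes share the same libraries, so that rate need not hold. Cdc6 had 0.799 CPM in library 4, Nusap1 had 2.44 CPM in library 4, E2f1 had 6.04 CPM in library 1 and Mad2l1 had 3.66 CPM in library 1.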

How the results depend on the processing

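Of 47 calls of single genes, 26 held under every alternative tried for them. Over 1340 alternatives, 1254 kept the call, 86 lost it and 0 reversed it. Of 375 alternative counts, 340 were within 1.5 times the reported one. The exceptions, whose cause was not tested, follow. In a fit limited to the groups of a comparison, called genes numbered 2 (not 1) between 16 and 6 weeks of HFD, 1 (not 3) for 16-week HFD against chow with metformin, 1 (not 2) for 6-week HFD against chow with metformin, 0 (not 2) for metformin on 16-week HFD, 1 (not 0) at 120 min on chow and 0 (not 5) at 30 min on 16-week HFD. With the replicate block they numbered 1 (not 0) at 60 min on chow, 11 at 30 min on 16-week HFD and 1 (not 0) for metformin by 16-week HFD. At 30 min on 16-week HFD the block fits libraries 4 to 6 exactly, so counts with it there rest on libraries 1 to 3. The block moved no other count by over 1.5 times. With length and GC trends removed, with and without the block, they numbered 0 for metformin on 16-week HFD, 1 at 60 min on chow and, at 30 min on 16-week HFD, 11 with the block and 1 without. DESeq2 gave 1 at 60 min on chow, and no filter gave 2 at 30 min on 16-week HFD. At that time, leaving out libraries 4 to 6 gave 10, and leaving out libraries 1 to 3, chosen after seeing the data, gave 0. Without both libraries of lowest length correlation, the count between 16 and 6 weeks of HFD was 3. Leaving out 1 library in turn gave 1 to 2 between 16 and 6 weeks of HFD, 1 to 2 for 6-week HFD against chow with metformin, 0 to 1 for metformin on chow, 1 to 2 for metformin on 16-week HFD, 0 to 1 at 15 min on chow, 0 to 1 at 60 min on chow and 0 to 7 at 30 min on 16-week HFD. Leaving out all 30 min libraries, with and without the 120 min library 2, was also chosen after seeing the data. For 15 of the genes the mean is under 1 CPM, where counts limit what can be called. Shares of all tested genes called are given for the reported fit only.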
